A study of Mus musculus with 8 samples.

Results

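Transcripts of the interleukin-6 family of cytokines were measured in laser-captured mouse endometrium, for 10 genes chosen by their symbols: the ligands *Lif*, *Il6* and *Osm*, the receptors *Lifr*, *Osmr*, *Il6ra*, *Il11ra1* and *Il6st*, the transcription factor *Stat3* and the feedback inhibitor *Socs3*. They are 10 of 52325 genes listed in the count table, and their Ensembl identifiers all matched. 4 libraries came from wild-type (WT) female mice and 4 from Thra1PV/+ female mice, in which 1 allele of *Thra* carries the PV mutation. That mutation gives a dominant-negative thyroid hormone receptor α1, and it is inherited by the whole animal, so it is not limited to the uterus or to any cell type. All mice were matched at metestrus, and the age of the sequenced mice was not given in the sources used here. Estimated counts per library ranged from 48791602 to 59818887. The labels give the genotype and a replicate number but do not state how each library was drawn from an animal, so the p-values measure the spread between these libraries. The libraries are numbered 1 to 4 within each genotype.

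Cytokines of this family signal through a shared receptor chain, gp130, which is encoded by *Il6st*. LIF binds its receptor LIFR, oncostatin M binds OSMR in the mouse, and interleukin-6 and interleukin-11 bind the non-signalling chains IL-6Rα and IL-11Rα, and each complex then includes gp130. Janus kinases bound to gp130 phosphorylate STAT3, which enters the nucleus and induces genes that include *Socs3*, and SOCS3 in turn binds gp130 and blocks the kinases. In the mouse uterus LIF from the glands is required for the embryo to implant, interleukin-11 receptor is required for the stroma to decidualise, and oncostatin M is made by blood-derived cells such as neutrophils and macrophages. Transcript counts do not measure phosphorylated STAT3 or secreted protein.

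The upstream sequences of 4 of these genes are shown because they carry, or lack, the motif that a STAT dimer binds and the motif that AP-1, the Fos and Jun dimer, binds. The sequences are the RefSeq promoters of GRCm38.p6, from 250 bases before to 50 bases after each annotated start, on the strand of the gene. *Socs3* is shown at chr11:117969317-117969616 on the minus strand, *Lif* at chr11:4257318-4257617, *Il6* at chr5:30012864-30013163 and *Il6st* at chr13:112463820-112464119, the last 3 on the plus strand. Capitals mark a match to TTCNNNGAA (STAT) in *Socs3* and to TGANTCA (AP-1) in *Lif* and *Il6*.
Socs3: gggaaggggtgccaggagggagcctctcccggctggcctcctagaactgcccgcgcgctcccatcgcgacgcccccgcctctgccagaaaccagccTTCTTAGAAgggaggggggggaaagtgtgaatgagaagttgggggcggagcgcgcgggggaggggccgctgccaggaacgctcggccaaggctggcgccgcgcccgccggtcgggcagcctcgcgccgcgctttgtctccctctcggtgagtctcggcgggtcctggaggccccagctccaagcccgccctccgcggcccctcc
Lif: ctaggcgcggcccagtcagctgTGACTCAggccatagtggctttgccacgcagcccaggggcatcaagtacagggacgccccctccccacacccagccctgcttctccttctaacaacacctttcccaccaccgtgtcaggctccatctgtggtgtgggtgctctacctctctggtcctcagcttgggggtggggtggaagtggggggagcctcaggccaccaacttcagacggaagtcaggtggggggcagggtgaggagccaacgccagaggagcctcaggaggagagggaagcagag
Il6: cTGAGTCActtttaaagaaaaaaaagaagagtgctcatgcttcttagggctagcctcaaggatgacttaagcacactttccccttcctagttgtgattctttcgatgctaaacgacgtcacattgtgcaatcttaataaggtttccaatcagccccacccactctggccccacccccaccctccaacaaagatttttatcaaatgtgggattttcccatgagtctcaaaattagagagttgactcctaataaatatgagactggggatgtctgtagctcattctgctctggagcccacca
Il6st: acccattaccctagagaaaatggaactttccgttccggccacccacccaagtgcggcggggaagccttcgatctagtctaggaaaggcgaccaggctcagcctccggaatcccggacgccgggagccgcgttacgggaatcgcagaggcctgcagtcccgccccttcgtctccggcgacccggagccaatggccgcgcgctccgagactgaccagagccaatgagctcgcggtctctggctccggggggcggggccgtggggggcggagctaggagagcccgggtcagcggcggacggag

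The search covered both strands of 11 windows from 9 of the 10 genes, with 2 starts each for *Lifr* and *Il11ra1*. *Osm* had no entry. The STAT motif was found in 1 window, that of *Socs3*, where its middle letters are TTA and it begins at position -154 from the start. It occurs in 8.3% of 32851 mouse promoters of the same length. The AP-1 motif was found in 3 windows, those of *Lif*, *Il6* and *Osmr*, against 7.81% of all promoters, and no window held both motifs. These matches describe the letters of the windows and not the binding of a factor.

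On the GRCm38 assembly with the GENCODE M21 annotation, *Osm* (chromosome 11, 4236420 to 4241026) and *Lif* (chromosome 11, 4257557 to 4272514) are neighbours on the plus strand with 16530 bases between them. *Osmr* (chromosome 15, 6813577 to 6874969, minus strand) and *Lifr* (chromosome 15, 7090614 to 7197489, plus strand) lie 215644 bases apart. *Il6st* spans 112464070 to 112510086 of chromosome 13, *Il6ra* 89864059 to 89913196 of chromosome 3 and *Il6* 30013114 to 30019981 of chromosome 5. *Stat3* (100885098 to 100939540) and *Socs3* (117966079 to 117970047) are both on chromosome 11. *Il11ra1* spans 41699989 to 41769474 of chromosome 4.

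The captured tissue was checked against cell type markers, as summed TPM (transcript reads scaled for length and library total). The deposited TPM used here had also been equalised between libraries, as described with the processing below. The libraries differed in their mixture of cells. Markers of simple epithelium (*Krt19*, *Krt8*, *Muc1* the most abundant) summed to between 1474.2 and 3598.3 TPM in all 8 libraries. Stromal markers (*Col3a1*, *Dcn*, *Col1a1*) ranged from 114.8 TPM in Thra1PV/+ replicate 2 to 2413.0 in Thra1PV/+ replicate 1. Squamous markers (*Krt5*, *Krt15*, *Krt14*) did not overlap, at 1626.1 to 2006.3 TPM in Thra1PV/+ and 0.463 to 25.2 TPM in WT. All 7 genes were higher without overlap in CPM (defined below), with 6 called by edgeR and 7 by DESeq2. In TPM *Krt6a* overlapped, at 4.44 in Thra1PV/+ replicate 1 and 4.74 in WT replicate 3. Neutrophil markers (*S100a9*, *S100a8*, *Csf3r*) ranged from 139.6 to 1800.4 TPM in Thra1PV/+ and from 10.1 to 289.9 TPM in WT. Smooth muscle markers (*Acta2*, *Des*, *Actg2*) stood at 4766.7 TPM in WT replicate 1 and at 44.7 to 390.5 TPM in the other 7 libraries, and blood markers (*Hba-a2*, *Hbb-bs*, *Hba-a1*) were also highest there, at 497.5 TPM. Of the uterine gland markers, *Ltf* dominated the sum (1539.6 to 9510.5 TPM), while *Prss28* and *Prss29* stayed under 1 TPM in every library, and *Prss28*, *Prss29* and *Spink1* were listed at 0 in some. *Thra* itself, whose mutant and normal transcripts are counted together, was at 80.1 ± 34.2 CPM (reads scaled for library total and the trimmed mean of M-values, TMM, without length) in Thra1PV/+ and 78.0 ± 33.7 CPM in WT (SD, n = 4 each). In bulk RNA, fewer cells of a type and less RNA per cell cannot be told apart.

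Per transcript length and averaged over the 8 libraries, *Il11ra1* had the highest level of the 10 genes, at 99.7 TPM. *Stat3* followed at 62.9 TPM, *Il6st* at 57.1 and its feedback partner *Socs3* at 25.1 TPM. *Osmr* (12.1 TPM), *Lif* (10.8 TPM) and *Lifr* (8.79 TPM) formed a middle group. *Il6ra* (3.27 TPM), *Osm* (2.29 TPM) and *Il6* (0.8 TPM) were lowest. Neighbours in this order overlapped across libraries at every step except between *Lifr*, whose lowest library was at 4.47 TPM, and *Il6ra*, whose highest was at 4.24 TPM.

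The comparison of genotypes asked which of these transcripts the PV mutation altered. A gene was called where edgeR's quasi-likelihood test gave an adjusted p of at most 0.1 and the fold change was at least 2. None of the 10 was called, against 180 of all 18174 tested genes (0.990%). 9 of the 10 genes passed the filter on low counts, and *Il6* did not. An unadjusted p under 0.05 was reached by 2 of the 9, *Il6st* (lower in Thra1PV/+) and *Osm* (higher), against 9.77% of all tested genes. *Il6st* was also the 1 of the 9 whose genotypes did not overlap in CPM, against 6.04% of all tested genes. DESeq2, the tool the study used, called 1 of the 10 at the same thresholds, *Osm*, against 3.58% of the genes to which it gave an adjusted p. The median log2 fold change of the 9 genes was 0.04 (5 positive and 4 negative), and that of all tested genes was -0.05. CPM values below are TMM-scaled, and all log2 fold changes are Thra1PV/+ minus WT.

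**Figure D1:**
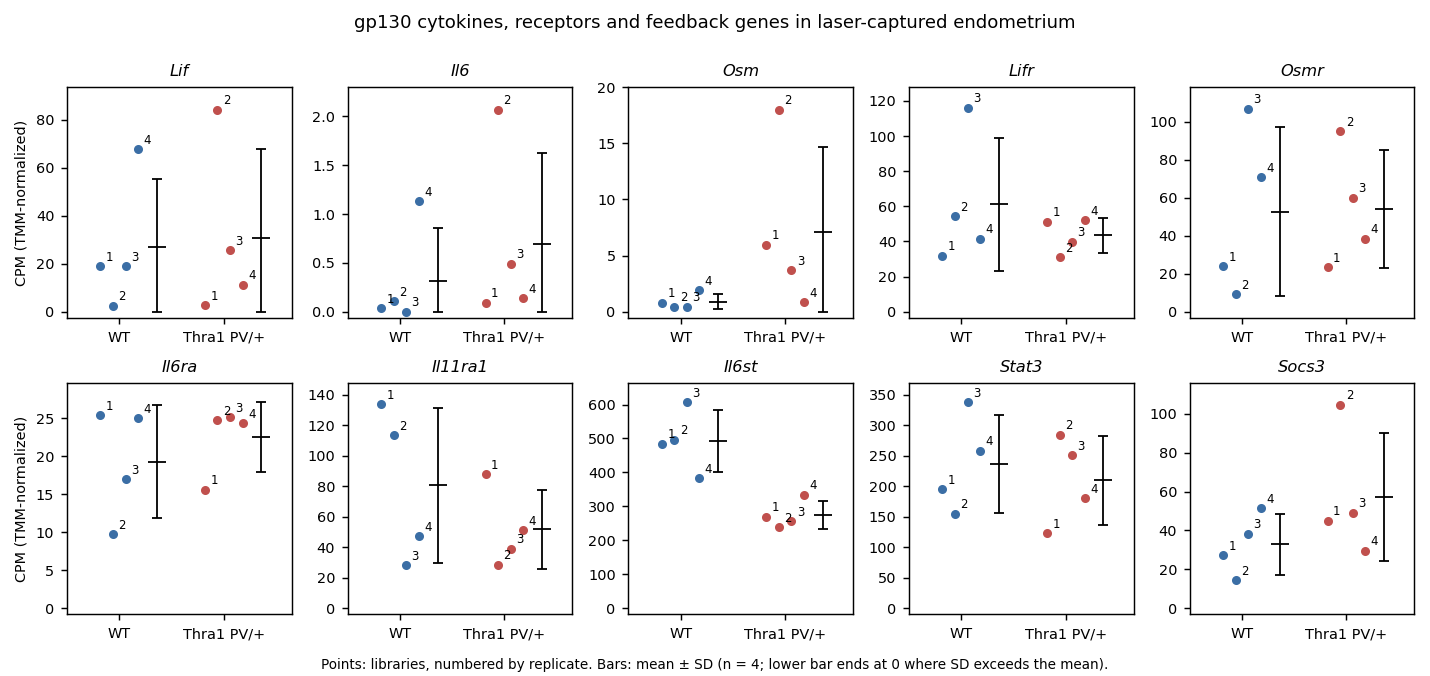
CPM (TMM-scaled, linear axis) of the 10 genes in each library, WT and Thra1PV/+, with replicate numbers beside the points and bars for the mean ± SD of 4 libraries. The genotypes separate in the *Il6st* panel (238.5 to 334.2 against 382.2 to 606.8) and overlap in the other 9.

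*Il6st*, the gp130 chain shared by the receptors of LIF, oncostatin M, interleukin-6 and interleukin-11, was lower in all 4 Thra1PV/+ libraries than in any WT library. It stood at 269.1, 238.5, 255.9 and 334.2 CPM in Thra1PV/+ replicates 1 to 4 and at 484.1, 496.2, 606.8 and 382.2 CPM in WT replicates 1 to 4. The means were 274.5 ± 41.8 CPM and 492.3 ± 91.9 CPM (SD, n = 4 each), a 1.79-fold lower level in Thra1PV/+. On the log2 scale the change was -0.84 (SE 0.18, 95% interval -1.26 to -0.43), with an unadjusted p of 0.00152 and adjusted p = 0.122 by edgeR, so the difference missed both the adjusted threshold and the fold of 2. By DESeq2 the adjusted p was 0.00524 at a log2 fold change of -0.82. The genotypes remained apart when counts were scaled by library size alone (highest Thra1PV/+ 352.7 and lowest WT 368.5 CPM) and in the deposited TPM (50.5 against 53.7 TPM). Leaving out each library in turn gave log2 fold changes from -0.95 to -0.71.

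Stromal and smooth muscle markers also had lower estimates in Thra1PV/+. The stromal sum was 2413.0, 114.8, 296.6 and 390.9 TPM in Thra1PV/+ replicates 1 to 4 and 2321.3, 2380.9, 551.8 and 714.8 TPM in WT replicates 1 to 4. In 6 of the 8 libraries the stromal sum and *Il6st* stood in the same order, while Thra1PV/+ replicate 1 was highest in stroma with *Il6st* below every WT library, and WT replicate 3 was highest in *Il6st* with less stroma than the other 3 WT libraries. All 7 stromal genes had a negative log2 fold change (median -1.72), none was called by edgeR, and DESeq2 called *Dcn*. The genotypes did not overlap for *Dcn* in CPM but did in TPM (301.3 in Thra1PV/+ replicate 1, 267 in WT replicate 3). All 5 smooth muscle genes had an unadjusted p under 0.05 and were lower in Thra1PV/+ (median log2 fold change -4.60), with *Myh11* and *Actg2* not overlapping. edgeR called none of them, and DESeq2 gave an adjusted p to 1 of the 5 and called none. The part of these markers in the *Il6st* difference was not tested. Without WT replicate 1, the library with the most smooth muscle RNA, the log2 fold change of *Il6st* was -0.81. Smooth muscle sums of WT replicates 2 to 4 were still 160 to 390.5 TPM, against 44.7 to 220 TPM in Thra1PV/+. Leaving out WT replicate 1 therefore does not test the part of smooth muscle. Squamous markers separate the same 2 groups of libraries, so their part in the *Il6st* difference and that of the genotype cannot be told apart.

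*Lif*, the cytokine needed for implantation, spread over a wide range within each genotype and did not pass the test. It was at 2.64, 84.3, 25.6 and 11.2 CPM in Thra1PV/+ replicates 1 to 4 and at 19.1, 2.49, 18.9 and 67.7 CPM in WT replicates 1 to 4. The highest library exceeded the lowest 31.9-fold within Thra1PV/+ and 27.2-fold within WT. Means were 30.9 ± 36.8 and 27.0 ± 28.2 CPM (SD, n = 4 each). The estimated log2 fold change was 0.19 (SE 1.10), and its 95% interval, -2.32 to 2.71, leaves changes of several fold in either direction undetectable with these libraries (adjusted p = 0.978). Without Thra1PV/+ replicate 2 the estimate was -1.04 and without WT replicate 4 it was 1.20.

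*Osm*, a cytokine of neutrophils and macrophages, had the largest fold difference of the 10 genes. It was at 5.95, 18, 3.68 and 0.841 CPM in Thra1PV/+ replicates 1 to 4, against 0.801, 0.451, 0.458 and 1.90 CPM in WT replicates 1 to 4. 3 Thra1PV/+ libraries were above every WT library, and replicate 4 lay inside the WT range. Means were 7.12 ± 7.56 and 0.904 ± 0.687 CPM (SD, n = 4 each), 7.87-fold apart. The log2 fold change was 2.98 (SE 0.92, 95% interval 0.86 to 5.09), with an unadjusted p of 0.0115 and adjusted p = 0.332 by edgeR, against adjusted p = 0.0143 by DESeq2, which called it. Without Thra1PV/+ replicate 2 it was 1.95 (adjusted p = 0.66). The count rested on 48 to 888 reads in Thra1PV/+ and 23 to 91 in WT.

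The *Osm* values moved with the summed neutrophil markers. *S100a9* and *S100a8* dominated this sum, with means of 245.8 and 167.5 TPM against 10.1 TPM for *Csf3r*. The summed marker level was 513.2, 1800.4, 679.1 and 139.6 TPM in Thra1PV/+ replicates 1 to 4 and 83.2, 10.1, 19.8 and 289.9 TPM in WT replicates 1 to 4. The 3 libraries with most *Osm*, Thra1PV/+ replicates 1 to 3, were the 3 highest in neutrophil markers, and WT replicate 4 came next in both. None of the 6 neutrophil genes was called by edgeR, 4 had an unadjusted p under 0.05, all upward, and DESeq2 called *S100a9* and *Csf3r*. *Mmp9* of the same list went the other way, with a log2 fold change of -0.36. The part of the neutrophil markers in the *Osm* difference was not tested. Macrophage markers (*C1qa*, *C1qb*, *Cd68*) ranged from 204.4 to 737.9 TPM in Thra1PV/+ and from 247.5 to 451.5 TPM in WT, and Thra1PV/+ replicate 2, highest in *Osm*, was lowest in them. The part of the macrophage markers in the *Osm* difference was not tested either.

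*Il6*, which encodes interleukin-6, was close to the detection limit. Its estimated counts were 5, 102, 24 and 8 in Thra1PV/+ replicates 1 to 4 and 2, 6, 0 and 54 in WT replicates 1 to 4, which is 0.0918, 2.07, 0.49 and 0.14 CPM against 0.0382, 0.108, 0 and 1.13 CPM. The count of 0 in WT replicate 3 allows up to 0.0597 CPM, the value of 3 counts. The high libraries, Thra1PV/+ replicate 2 and WT replicate 4, belong to different genotypes. *Il6* was not tested in the filtered table. In the 6 edgeR alternatives that kept it, the log2 fold change ran from 0.75 to 1.54 with adjusted p from 0.718 to 0.974, and DESeq2 gave 1.15 with adjusted p = 0.896. No change of *Il6* was detected, with libraries of the same genotype far apart.

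*Lifr*, the LIF receptor, did not differ beyond the spread of the libraries. It was at 51.3, 31.0, 39.8 and 52.0 CPM in Thra1PV/+ replicates 1 to 4 and at 31.9, 54.5, 116.2 and 41.5 CPM in WT replicates 1 to 4, so that WT replicate 3 stood above the rest. Its log2 fold change was -0.49 (SE 0.39, 95% interval -1.39 to 0.41, adjusted p = 0.755), and 0.05 without WT replicate 3.

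*Osmr*, the oncostatin M receptor, also overlapped between genotypes, at 23.5, 94.9, 60.1 and 38.4 CPM in Thra1PV/+ replicates 1 to 4 and 24.1, 9.15, 106.8 and 70.9 CPM in WT replicates 1 to 4. Within WT the highest and lowest libraries were 11.7-fold apart. The log2 fold change was 0.04 (SE 0.72, 95% interval -1.61 to 1.69, adjusted p = 0.991), and it ranged from -0.37 without Thra1PV/+ replicate 2 to 0.67 without WT replicate 3. Beside the difference of *Osm*, the means of its receptor, 54.2 ± 31.0 and 52.7 ± 44.6 CPM (SD, n = 4 each), nearly coincided.

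*Il6ra*, the interleukin-6 binding chain, was the steadiest receptor besides *Il6st*. It was at 15.6, 24.8, 25.2 and 24.4 CPM in Thra1PV/+ replicates 1 to 4 and at 25.4, 9.71, 17.0 and 25.0 CPM in WT replicates 1 to 4. Thra1PV/+ replicates 2 to 4 and WT replicates 1 and 4 had nearly the same level. The log2 fold change was 0.22 (SE 0.31, 95% interval -0.50 to 0.94, adjusted p = 0.876).

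*Il11ra1*, the interleukin-11 binding chain, was at 88.0, 28.6, 39.0 and 51.0 CPM in Thra1PV/+ replicates 1 to 4 and at 134.0, 113.4, 28.3 and 47.4 CPM in WT replicates 1 to 4. WT replicates 1 and 2 and Thra1PV/+ replicate 1 were highest, and the same 3 libraries had the highest stromal sums, 2321.3, 2380.9 and 2413.0 TPM, whose part in the pattern was not tested. Its log2 fold change was -0.64 (SE 0.53, 95% interval -1.86 to 0.57, adjusted p = 0.762), and -0.24 without WT replicate 1. The gene has near-identical copies, *Il11ra2*, *Gm13305* and *Gm13306*, whose estimated counts did not exceed 7.79 in any library, and its span overlaps 6 other genes, 1 of them (*Galt*) on the same strand, so the share of reads given to it is uncertain.

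*Stat3*, the transcription factor downstream of gp130, overlapped between genotypes. It was at 122.3, 284.3, 250.6 and 180.4 CPM in Thra1PV/+ replicates 1 to 4 and at 194.9, 154.4, 337.0 and 257.9 CPM in WT replicates 1 to 4. Its log2 fold change was -0.17 (SE 0.32, 95% interval -0.91 to 0.56, adjusted p = 0.912), and it was 0.07 without WT replicate 3. The 4 libraries with most *Stat3* (WT replicate 3, Thra1PV/+ replicate 2, WT replicate 4 and Thra1PV/+ replicate 3) were also the 4 with most *Osmr* and the 4 highest in simple epithelial markers, at 2846.0 to 3598.3 TPM, and the part of those markers was not tested.

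*Socs3*, induced by STAT3 and an inhibitor of gp130 signalling, was at 44.9, 104.7, 49.0 and 29.5 CPM in Thra1PV/+ replicates 1 to 4 and at 27.3, 14.4, 38.2 and 51.4 CPM in WT replicates 1 to 4. Thra1PV/+ replicate 2 stood far above the others and the ranges overlapped. Means were 57.0 ± 32.9 and 32.8 ± 15.7 CPM (SD, n = 4 each), 1.74-fold apart. A log2 fold change of 0.80 was estimated (SE 0.47, 95% interval -0.28 to 1.88, adjusted p = 0.645), against 0.33 without Thra1PV/+ replicate 2.

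In CPM, *Lif*, *Il6* and *Socs3* shared their 3 highest libraries in the same order, Thra1PV/+ replicate 2, WT replicate 4 and Thra1PV/+ replicate 3, and this order crosses the genotypes. For *Socs3*, Thra1PV/+ replicates 3 and 1 were close (49.0 and 44.9 CPM). In estimated counts replicate 1 stood above replicate 3 (2447 against 2400). WT replicate 2 was lowest in CPM of *Lif*, *Osm*, *Osmr*, *Il6ra* and *Socs3*. For *Osm*, WT replicates 2 and 3 were close (0.451 and 0.458 CPM), and in estimated counts replicate 3 was lower (23 against 25). Immediate-early genes (*Ier3*, *Junb*, *Jun* the most abundant), which respond to stimulation and to tissue handling, summed to 1277.7 TPM in Thra1PV/+ replicate 2 and 777.2 TPM in WT replicate 4, the 2 highest, and to 285.7 TPM in WT replicate 2, the lowest. They ranged from 347.3 to 1277.7 TPM in Thra1PV/+ and from 285.7 to 777.2 TPM in WT, none of the 9 was called by edgeR or DESeq2, and their part in the cytokine values was not tested. Stromal sums also differed, at 114.8 TPM in Thra1PV/+ replicate 2, 714.8 TPM in WT replicate 4 and 2380.9 TPM in WT replicate 2. The part of stroma in the cytokine values was not tested either.

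**Figure D2:**
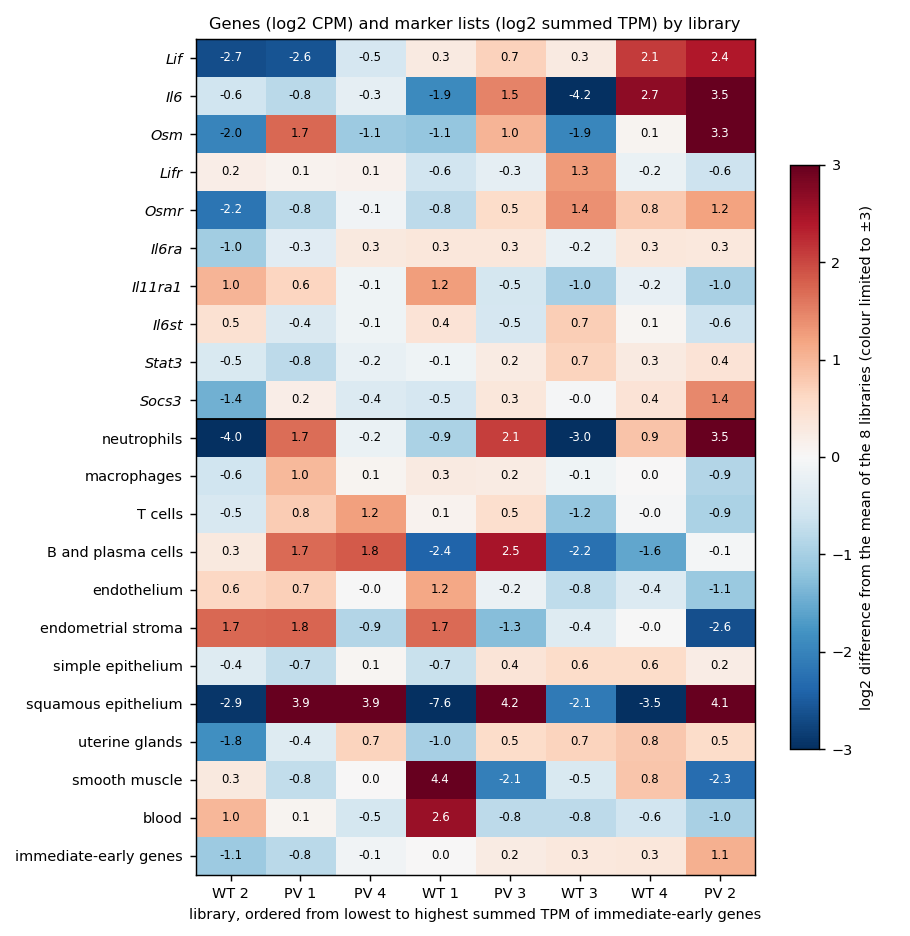
Heat map of each library's log2 deviation from the mean of the 8 libraries, for the 10 genes (log2 CPM) and for the summed TPM of each marker list, with libraries (WT n, or PV n for Thra1PV/+ replicate n) ordered from the lowest to the highest immediate-early sum. *Lif*, *Il6* and *Socs3* are high in PV2 and WT4, *Osm* follows the neutrophil row, and the squamous row separates the genotypes.

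Other cell types could also lie in the captured tissue. T cell markers (*Cd3g*, *Trac*, *Cd3e*) summed to 6.27 to 28.6 TPM in Thra1PV/+ and 5.37 to 13.0 TPM in WT, with *Cd8a* under 1 TPM in every library. B and plasma cell markers (*Jchain*, *Cd79b*, *Mzb1*) summed to 47.5 to 278.4 TPM in Thra1PV/+ and 9.34 to 61.0 TPM in WT, while *Ms4a1* stayed under 1 TPM in every library. Endothelial markers (*Emcn*, *Pecam1*, *Cldn5*) summed to 25.7 to 91.7 TPM in Thra1PV/+ and 33.1 to 126.5 TPM in WT. edgeR called no gene of these 3 lists. Of the T cell genes, 4 of 7 had an unadjusted p under 0.05, all upward, and DESeq2 called *Cd4*. Of the B and plasma cell genes, 3 of 5 did, also upward, and DESeq2 called *Jchain* and *Cd79a*. No endothelial gene had an unadjusted p under 0.05 or was called by DESeq2.

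Ratios between members within a library are free of library scaling, and 4 were compared, each as the log2 of estimated counts plus 0.5 tested over the 8 libraries by exact permutation, two-sided (the smallest p such a permutation test allows is 0.0286). The *Il6ra* to *Il6st* ratio, which sets the binding chain against the shared chain, was -4.11, -3.26, -3.34 and -3.77 in Thra1PV/+ replicates 1 to 4 and -4.25, -5.67, -5.15 and -3.93 in WT replicates 1 to 4. Thra1PV/+ was higher by 1.13, with overlap in WT replicate 4 (exact p = 0.0571, 0.171 after Benjamini-Hochberg adjustment over the 4 ratios). The *Socs3* to *Stat3* ratio, the feedback gene against its transcription factor, averaged -1.96 ± 0.61 in Thra1PV/+ and -2.93 ± 0.47 in WT (SD), a difference of 0.97 (exact p = 0.0857, adjusted p = 0.171). The *Osmr* to *Lifr* ratio differed by 0.74 (exact p = 0.514, adjusted p = 0.6) and the *Lif* to *Il6st* ratio by 0.85 (exact p = 0.6, adjusted p = 0.6). None of the 4 passed, and the genotypes overlapped in each.

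**Figure D3:**
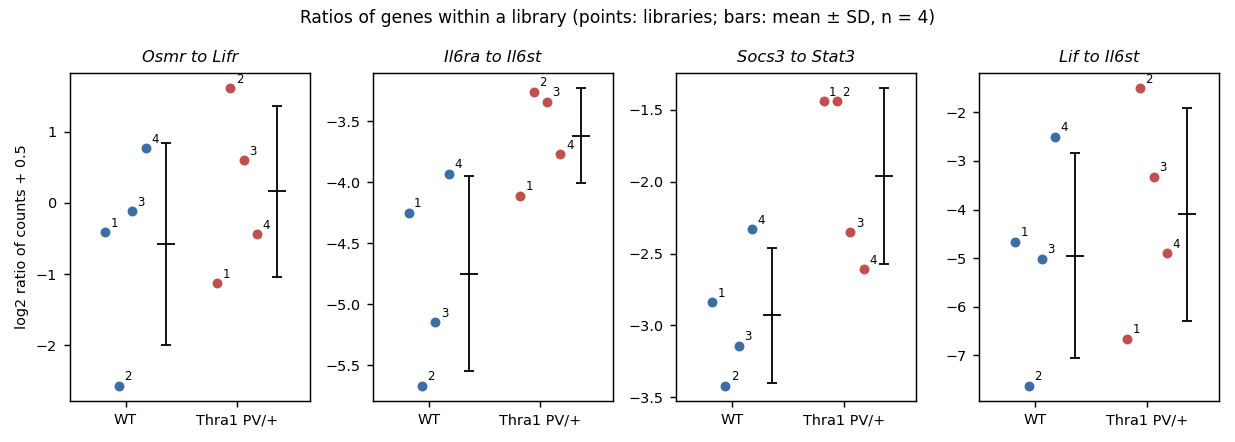
Log2 ratios of estimated counts (plus 0.5) between pairs of genes in each library, with bars for the mean ± SD of 4 libraries per genotype. Thra1PV/+ is higher by 1.13 for *Il6ra* to *Il6st* and 0.97 for *Socs3* to *Stat3*, with overlap in all 4 panels.

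The rest of the pathway was described with a list of 54 genes in 5 roles, which includes the 10. Of the 50 that were tested, none was called by edgeR, and 4 had an unadjusted p under 0.05 (8%, against 9.77% of all tested genes): *Osm* and *Socs2* upward and *Il6st* and *Jak2* downward. *Il6*, *Il27*, *Il31* and *Il11ra2* did not pass the filter. The median log2 fold change was -0.01. DESeq2 called *Osm*.

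Among the other ligands, *Ebi3*, a subunit of interleukin-27, was at 2.73 ± 0.538 CPM in Thra1PV/+ against 1.94 ± 0.238 CPM in WT (SD, n = 4 each) without overlap (log2 fold change 0.49, adjusted p = 0.614). In the deposited TPM the genotypes overlapped, at 3.41 in Thra1PV/+ replicate 3 and 3.74 in WT replicate 3. *Ebi3* and *Il6st* were the 2 of 50 tested pathway genes without overlap in CPM, against 6.04% of all tested genes. *Ctf1*, cardiotrophin 1, had the highest level per length of all 11 ligands at 25.1 TPM, and did not pass the test (log2 fold change 0.19, adjusted p = 0.851). *Ctf2* was at 0.213 and 0.328 CPM in Thra1PV/+ and WT (log2 fold change -0.62, adjusted p = 0.796). The 8 tested ligands had a median log2 fold change of 0.19.

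Among the receptors, 5 of 8 tested genes had a negative log2 fold change, with a median of -0.29. Beside the 5 members, *Il31ra*, the receptor of interleukin-31, was at 0.283 ± 0.103 against 0.511 ± 0.202 CPM (SD, n = 4 each), with a log2 fold change of -0.85 and adjusted p = 0.596. *Il27ra* (-0.09, adjusted p = 0.978) and *Cntfr*, the receptor of ciliary neurotrophic factor (0.10, adjusted p = 0.988), had log2 fold changes near 0 whose sign depended on single libraries and on the fit.

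Of the 7 kinases and STATs, 6 had a negative log2 fold change, and none was called. The negative values ran from -0.85 to -0.00059, and the median of the 7 was -0.14, against -0.05 for all tested genes. *Jak2*, a gp130-associated kinase, was at 148.3, 122.4, 111.5 and 130.1 CPM in Thra1PV/+ replicates 1 to 4 and at 130.2, 334.9, 288.3 and 167.5 CPM in WT replicates 1 to 4. Only WT replicate 1 lay within the Thra1PV/+ range. The log2 fold change was -0.85 (SE 0.30) with an unadjusted p of 0.0205 and adjusted p = 0.391 by edgeR. *Jak1*, the principal kinase of gp130, was at 125.2 ± 22.7 and 137.5 ± 23.9 CPM (log2 fold change -0.14, adjusted p = 0.863). *Stat5a*, which overlaps *Stat3* on the opposite strand, had a log2 fold change of -0.31 (adjusted p = 0.8), and the library kit keeps strand, while the strand setting of the counting is not given in the sources used here.

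Of the 9 feedback genes and phosphatases, 6 had a positive log2 fold change (median 0.07). *Socs2*, best known as a brake on growth hormone signalling, was at 57.7 ± 14.7 CPM in Thra1PV/+ and 38.5 ± 8.75 CPM in WT (SD, n = 4 each), with a log2 fold change of 0.58 (SE 0.23), an unadjusted p of 0.035 and adjusted p = 0.463 by edgeR. It had the highest level per length of this role at 32.2 TPM. *Ptpn6*, the phosphatase SHP-1 of blood cells, had a log2 fold change of 0.39 (adjusted p = 0.611) and *Cish* one of -0.34 (adjusted p = 0.734).

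The 18 STAT3 target genes had no common direction. 8 had a positive and 10 a negative log2 fold change, from -2.30 to 0.80 with a median of -0.04, and none had an unadjusted p under 0.05. *Ccl2*, a monocyte chemokine, was at 3.16 ± 3.45 against 15.6 ± 20.2 CPM (log2 fold change -2.30, SE 1.25, adjusted p = 0.615). *Junb*, a subunit of AP-1, was at 186.5 ± 109.8 against 110.1 ± 63.7 CPM (log2 fold change 0.76, adjusted p = 0.707). *Hp*, which encodes the haemoglobin-binding protein haptoglobin, had a log2 fold change of -0.69 (adjusted p = 0.574). *Lcn2*, an iron-sequestering protein of the uterine epithelium and the most abundant of these transcripts at 6541.3 TPM, had a log2 fold change of -0.06 (SE 1.13, adjusted p = 0.993) that turned positive under 5 other scalings or fits.

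**Figure D4:**
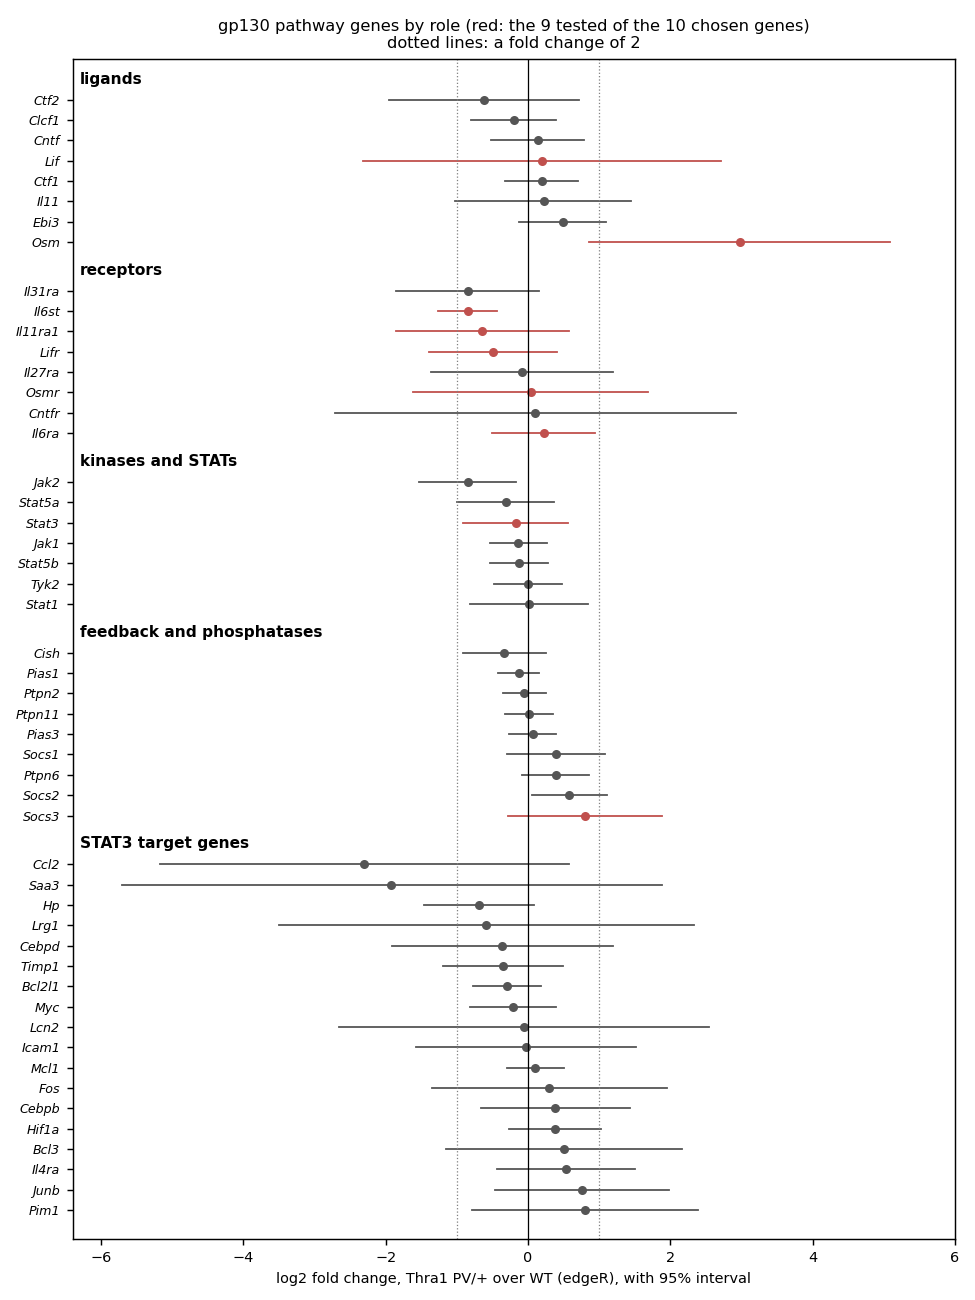
Log2 fold change (Thra1PV/+ minus WT) with its 95% interval for each tested gene of the pathway list, grouped by role, with the 9 tested of the 10 chosen genes in red. Most intervals cross 0, while those of *Osm* (0.86 to 5.09) and *Il6st* (-1.26 to -0.43) lie on 1 side, as do those of *Jak2* and *Socs2*.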

How the data were processed

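RNA of endometrium, cut by laser from frozen sections of the uterus of 4 WT and 4 Thra1PV/+ mice, was sequenced with a stranded paired-end mRNA kit. Per the labels and the study's methods, the authors trimmed reads with Trimmomatic and quantified them with salmon against mm10, and the versions and the annotation are not given in the sources used here. They deposited estimated counts per gene, of which 71.0 to 78.5% were whole numbers in a library, and a table of TPM. The sorted TPM values differed by at most 0.291 TPM between the 8 libraries at any rank, so the deposited TPM had been equalised between libraries and were used for levels and marker sums. 1 column of per-sample values that matched no sample was not used.

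The estimated counts were rounded. Genes were kept by edgeR's filterByExpr (minimum count 10, total 15), which left 18174 of 52325, and tested with edgeR 4.0.16 (quasi-likelihood, TMM, all 8 libraries, no covariate) in R 4.3.3, with Benjamini-Hochberg adjustment over all tested genes. A call needed an adjusted p of at most 0.1 and a fold of at least 2. These are the study's thresholds, which the study applied with DESeq2 and not with edgeR. CPM means, SDs and folds between means are on the linear scale. The genotype groups come from the labels. Alternatives were DESeq2 1.42.0, limma 3.58.1 (voom with quality weights, log2(TPM + 1) and log2(TPM + 0.1)), other scalings and filters, a robust dispersion, a replicate block and leaving out each library. The fits were tested on simulated counts. Exact permutation tests used scipy 1.17.1. Depth gives at least 48791602 estimated counts per library, and limits from a count of 0 cover counting error only.

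The 10 genes, the pathway list, the marker lists and the tests were chosen with earlier results of these data known, the lists from general knowledge. Named are all 10 genes, in each role of the pathway list up to 3 further genes with the smallest unadjusted p and the most abundant, and in each marker list the 3 most abundant genes and those listed at 0. 2 genes of the lists are not reported here. Identifiers were matched to symbols for 52220 genes.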

Additional observations from a re-analysis of the deposited data

Results flagged for a closer look

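*Il6ra* in Thra1PV/+ replicate 1 stood apart from its group, at 3.97 on the log2 CPM scale against 4.61 to 4.66 in the other 3 libraries of that genotype. Its gap was 0.935 of the whole range of the group, above the 95% critical value of Dixon for 4 samples. The search covered 28 groups of 4, of which chance alone would give about 1.4 such values, and this was the 1 found.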

How the results depend on the processing

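None of the 10 genes or of the 54 pathway genes was called by edgeR under any scaling, filter, left-out library, the robust dispersion, voom or log2 TPM with limma. DESeq2 called 1 and 1 (*Osm* in both), and an unadjusted p under 0.05 with no fold threshold was reached by 2 and 4. The deviations of same-numbered libraries of the 2 genotypes correlated at 0.269, -0.436, 0.34 and -0.159, without a common sign. The labels do not state whether the numbers pair the samples. These correlations cannot decide it, because the libraries also differed in their mixture of cells. With a replicate block the calls were 0 among the members and 0 in the pathway, and 82 among all genes against 180. The block turned *Lif* to -0.51, *Il27ra* to 0.12 and *Cntfr* to -0.0041. *Cntfr* was -0.27 with voom, -0.06 on log2(TPM + 1) and -0.14 on log2(TPM + 0.1), and *Lcn2* was 0.01 with upper quartile scaling, 0.07 with library size, 1.11 with voom and 0.93 on both TPM scales. Leaving out 1 library gave log2 fold changes of -1.04 to 1.20 for *Lif*, -0.66 to 0.05 for *Lifr*, -0.37 to 0.67 for *Osmr*, -0.36 to 0.07 for *Stat3*, -0.92 to 0.07 for *Ctf2*, -0.37 to 0.41 for *Il27ra*, -1.63 to 1.91 for *Cntfr*, -0.22 to 0.02 for *Jak1* and -0.51 to 0.57 for *Lcn2*, and -0.04 to 1.71 for the *Lif* to *Il6st* ratio. The cause was not tested. *Il6st* stayed negative in all 19 alternatives (-0.95 to -0.71) and *Osm* positive (1.32 to 3.64). Calls among all genes numbered 791 by DESeq2, 311 with voom, 81 with at least 10 counts in every library and 81 without Thra1PV/+ replicate 3. The median of all genes stayed between -0.06 and 0.03. With 4 libraries a genotype, *Lif*, *Il6* and *Osmr* allow no statement on changes of a few fold.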
